A study of Mus musculus with 19 samples.

Results

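The presynaptic vesicle and release machinery was followed here as 50 genes, out of 20436 genes with a row in the RNA and in the ribosome profiling count table. They were listed by symbol, and Syngr3 was set beside the other vesicle proteins. The genes were chosen by name with earlier results of the DHPG against basal comparison in view, in RNA and in ribosome-protected fragments (RPFs, pieces of mRNA shielded from nuclease by a ribosome). On which value Syngr3 was singled out is not recorded, and its RPF change was counted as used. The RPF change of Syngr3 after DHPG is therefore given as a description, without a test. The 50 genes fall into 6 roles. There are 7 vesicle membrane proteins, 3 synapsins, 12 proteins of the SNARE cycle, 13 proteins of the active zone and vesicle priming, and 3 Rab3 GTPases. The other 12 are synaptotagmins, Doc2 proteins and rabphilin, called calcium sensors here. That name goes by protein family and does not state that each member binds calcium.

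The study induced a form of synaptic long-term depression in hippocampal slices and measured RNA by RNA-seq and ribosome occupancy by ribosome profiling. All slices were from wild-type male mice of 28 to 42 days. Basal slices received vehicle (artificial cerebrospinal fluid) for 5 min, and DHPG slices received 100 µM dihydroxyphenylglycine, an agonist of group 1 metabotropic glutamate receptors, for 5 min. Slices of both groups were then placed in cycloheximide at 100 µg/ml, which holds ribosomes on the mRNA. There were 4 basal and 5 DHPG RNA libraries, and 5 basal and 5 DHPG RPF libraries, numbered by replicate. With the replicate number as a block, the DHPG RNA library of replicate 5, which had no basal partner, added nothing to the RNA fold changes. The methods state that each library pooled slices of several mice and that CA3 was left in the slices of these batches, so that each value is an average over mice, cell types and hippocampal fields.

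A presynaptic terminal stores transmitter in vesicles whose membrane carries tetraspan proteins (synaptophysin, synaptoporin, the synaptogyrins) and SV2 transporters. Synapsins tether vesicles in clusters, and active zone scaffolds with RIM and Munc13 proteins dock and prime them. The vesicle SNARE synaptobrevin pairs with syntaxin and SNAP-25 on the plasma membrane, complexin holds the complex, and a synaptotagmin triggers fusion when calcium enters. NSF and the SNAP adaptors then take the used SNARE complexes apart.

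Several of these genes have close paralogs, so the coding sequences were compared in windows of 30 nt, about the length of a footprint. In 45 of the 50 genes no such window was shared with the coding sequence of another gene. The closest windows of some paralogs are set out because they bear on how well reads tell the genes apart, with capitals at the bases that differ. The closest windows of the synaptogyrins lie in exon 3 of Syngr3 (chr17:24686531-24686560, minus strand, mm10) and in exon 3 of Syngr1 (chr15:80111703-80111732, plus strand), both coding, and differ at 4 bases.
Syngr3: cgTgctgccatcgcTttcAGcttcttctcc
Syngr1: cgGgctgccatcgcCttcTCcttcttctcc

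The closest windows of the complexins differ at 1 base. They lie in exon 3 of Cplx1 (chr5:108525538-108525567, minus strand) and exon 3 of Cplx2 (chr13:54378812-54378841, plus strand).
Cplx1: gggccaccaaggacatggggaagatgctTg
Cplx2: gggccaccaaggacatggggaagatgctGg

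The closest windows of the synaptobrevins also differ at 1 base. They lie in exon 3 of Vamp1 (chr6:125218954-125218983, plus strand) and exon 3 of Vamp2 (chr11:69089774-69089803, plus strand).
Vamp1: gggaccagaagttgtcAgagctggatgacc
Vamp2: gggaccagaagttgtcGgagctggatgacc

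Unc13a and Unc13b shared 3 windows, of which the first is in exon 28 of Unc13a (chr8:71645747-71645776, minus strand) and exon 26 of Unc13b (chr4:43255510-43255539, plus strand).
Unc13a and Unc13b: tacatgaacctgcacttcaaggtgaagtgg

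Rab3b shared 4 windows (0.701% of its windows) with Rab3d, and the few shared windows of Bsn and Erc2 were with genes outside the list. Exons of 21 members overlap an annotated gene on the other strand, among them Syp, Sv2b, Syn2, Syn3, Syt4, Syt6, Syt7, Snap47, Rab3b and Doc2a. Whether the counting used strand is not given in the sources used here, so reads of such partners cannot be told apart.

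Library totals ran from 4870813 to 7793244 counts in RNA and from 5692064 to 22092434 counts in RPF. The 50 genes held 1.25 to 1.37% of the counts in basal RNA libraries and 1.22 to 1.34% after DHPG. In RPF they held 2.03 to 2.1% in both groups. Markers of principal cells, CA1, CA3, dentate granule cells, interneurons and glia were above 0 in every library. In basal RPF the CA3 markers summed to 48.5 to 58.8 CPM, beside 366.6 to 441.2 CPM for the CA1 markers. A list of 7 genes that mark thalamus was chosen with earlier results of these data known, so its counts are a description. In RPF 6 of the 7 were past the threshold (adjusted p under 0.05, edgeR) as higher after DHPG, beside 0.182% of all genes. The RPF log2 fold change was positive in 7 of 7. In RNA 5 were tested and 1 was past the threshold (adjusted p under 0.01, edgeR), beside 0.00773% of all genes. The summed RPF level of the list was 108.9 to 136.3 CPM in basal and 114.5 to 183.3 CPM in DHPG libraries. In such tissue pools, fewer cells of a type and less RNA per cell cannot be told apart.

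Levels in the basal slices were compared between genes as CPM (counts scaled to library size by edgeR) per kb of coding sequence. The vesicle membrane proteins were led by Syp (synaptophysin), with 1499.7 ± 345 CPM per kb in RNA (SD, n = 4) and 2345 ± 91.1 in RPF (SD, n = 5), above 99.7% of all genes tested in RPF. In RPF the next were Sv2b at 319 ± 24.9 CPM per kb, Synpr (synaptoporin) at 310.3 ± 28.9, Syngr3 (synaptogyrin-3) at 301 ± 8.88, Sv2a at 294 ± 11.6 and Syngr1 (synaptogyrin-1) at 266 ± 11.6. Each of these overlapped its neighbour in the order, so Syngr3 was a vesicle protein of middle rank whose level was not set apart from Synpr or Sv2a. Sv2c stood apart at 18.5 ± 1.88 CPM per kb in RPF, with all libraries of Syngr1 above all of Sv2c.

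Among the synapsins, Syn2 (449 ± 33.2 CPM per kb in RPF) and Syn1 (407 ± 30.8) overlapped, and Syn3 was at 14.5 ± 0.97. The calcium sensors spanned a wide range. Syt1, the fast sensor of forebrain synapses, was at 1086 ± 113 CPM per kb in RPF, Syt11 at 667 ± 43.4 and Syt4 at 286 ± 38.8, and these did not overlap. Syt6 was the lowest of this role, at 7.63 ± 0.26 CPM per kb in RPF.

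The SNARE cycle held the highest RPF levels of the list. Snap25 was at 5155 ± 208 CPM per kb in RPF (SD, n = 5) against 778 ± 276 in RNA (SD, n = 4), and Vamp2, the main synaptobrevin of forebrain, at 2780 ± 51.4 in RPF against 308 ± 82.3 in RNA. Vamp1 had 168 ± 11.5 CPM per kb in RPF. Stxbp5 (tomosyn), which competes with synaptobrevin, was lowest of this role in RPF with 25 ± 0.64. The active zone proteins were lower per kb, from 48.4 ± 4.02 CPM per kb in RPF for Unc13a (Munc13-1) to 3.07 ± 0.18 for Unc13b and 0.52 ± 0.047 for Unc13c, a Munc13 best known from cerebellum. The neighbours from Ppfia2 to Erc1 in that order overlapped. In RNA, Bsn (bassoon, a large scaffold) led the active zone at 77.7 ± 22.1 CPM per kb but overlapped Unc13a at 77.1 ± 8.42. Unc13c was last at 5.15 ± 2.18 and overlapped Unc13b. Of the Rab3 GTPases, Rab3a had 1404 ± 84.5 CPM per kb in RPF, Rab3c 331 ± 23.2 and Rab3b 130.3 ± 5.28, without overlap.

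**Figure D1:**
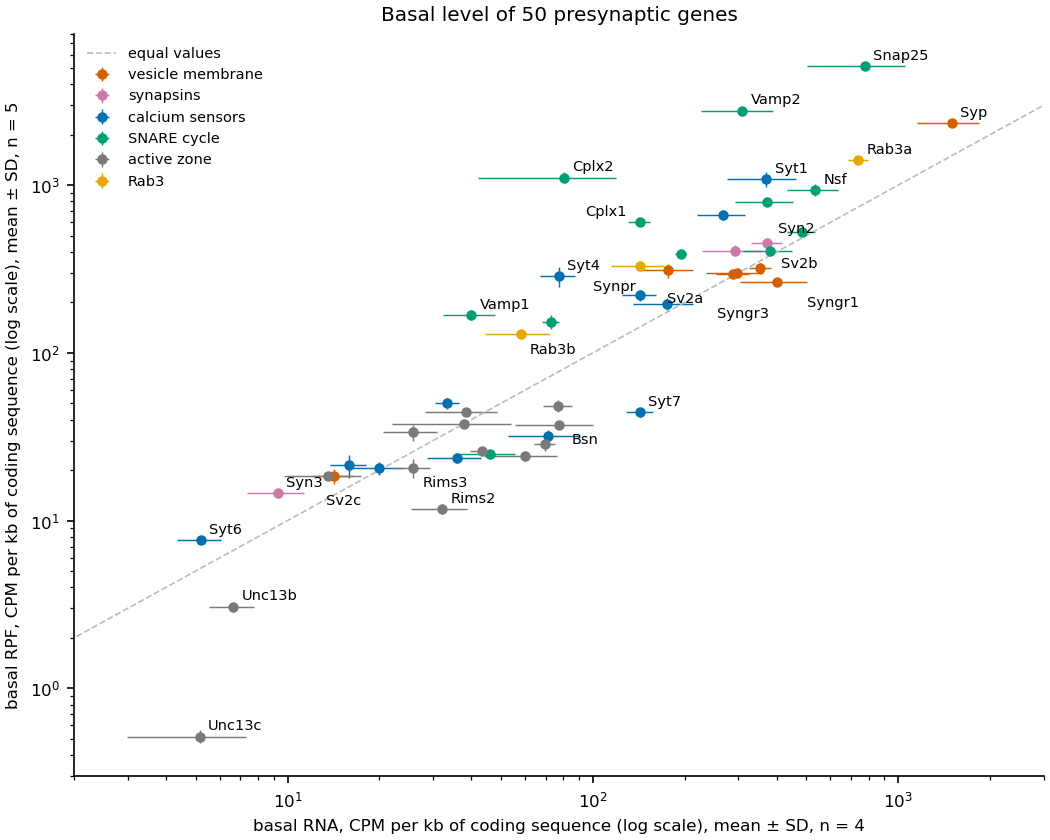
Basal level of the 50 genes, with RNA on the x axis and RPF on the y axis, both in CPM per kb of coding sequence on log scales; points are means and bars SDs over 4 RNA and 5 RPF libraries, and colours are roles. Snap25, Vamp2 and Cplx2 lie far above the line of equal values, and Syt7, Rims2 and Unc13c lie below it.

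Translation efficiency (TE) was taken as the log2 ratio of RPF to RNA CPM in each of the 4 basal replicates with both libraries, less the median of all 12691 genes tested in both assays, so that the median gene is at 0. The median TE of the 50 genes was 0.59, and 36 of 50 were above the median gene. There were 10 members in the top decile of all genes and 2 in the bottom decile. By role, the median TE was 1.27 in the SNARE cycle, 1.36 in Rab3, 0.67 in the synapsins, 0.65 in the calcium sensors, 0.23 in the vesicle membrane proteins and -0.57 in the active zone.

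TE fell with coding length over all genes, from a median of 0.83 for coding sequences of 300 to 600 nt to -0.76 above 5000 nt. Across the 50 genes the Spearman correlation of TE with log2 coding length was -0.68 (n = 50 genes, which share the same libraries). TE is therefore also given relative to the 400 genes nearest in coding length. On that scale the median of the 50 genes was 0.61, with 36 of 50 above 0, and the active zone median was -0.028.

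The highest TE was that of Cplx2 (complexin-2), at 4.04 ± 0.65 (SD, n = 4), with 3.11, 4.32, 4.61 and 4.13 in replicates 1 to 4. Its CPM in the basal RNA libraries was 46.7, 20.6, 16.8 and 27.2, a wide spread with replicate 1 high, while its RPF CPM was 357, 367, 370.0, 427 and 394. Vamp2 followed at 3.39 ± 0.44 and Snap25 at 3.0 ± 0.52. Relative to genes of like coding length these were 3.23 for Cplx2, 2.30 for Vamp2 and 2.44 for Snap25. The paralogs of Cplx2 and Vamp2 had 2.24 ± 0.09 for Cplx1 and 2.24 ± 0.32 for Vamp1, with all 4 replicates of Cplx2 above all 4 of Cplx1.

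The lowest TE was that of Unc13c, at -2.97 ± 0.72, or -2.19 relative to genes of like coding length. Its basal RNA was 34.6, 32.1, 17 and 51.9 CPM, and its RPF 3.26, 3.90, 3.45, 3.15 and 3.18 CPM, on as few as 19 counts in 1 RPF library. Syt7, a slow high-affinity calcium sensor, had a TE of -1.51 ± 0.21, and Rims2, a RIM scaffold of the active zone, -1.24 ± 0.27. Relative to genes of like coding length these were -1.33 for Syt7 and -0.72 for Rims2. Among the vesicle membrane proteins TE ran from 1.02 ± 0.44 for Synpr and 0.86 ± 0.32 for Syp to -0.40 ± 0.41 for Syngr1. Syngr3 was at 0.23 ± 0.33, or -0.20 relative to genes of like coding length, where Syngr1 was at -0.84.

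The bases around the start codon of these 6 extremes are shown because initiation takes place there, with the start codon in capitals. The codons lie on mm10 at chr13:54378669-54378671 (plus strand, exon 2) for Cplx2, at chr11 from base 69088626 (plus strand, across the junction of exons 1 and 2) for Vamp2, at chr2:136756130-136756132 (plus strand, exon 2) for Snap25, at chr9:73933565-73933567 (minus strand, exon 2) for Unc13c, at chr19:10389483-10389485 (plus strand, exon 1) for Syt7 and at chr15:39198363-39198365 (plus strand, exon 1) for Rims2.
Cplx2: agcctgcaggATGgac
Vamp2: tacccccgccATGtcg
Snap25: caccagtaccATGgcc
Unc13c: attgctctccATGgtg
Syt7: gaaggggaccATGtac
Rims2: tccgccaaacATGtcg

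A purine stood 3 bases before the start codon in 5 of the 6, with Unc13c the exception. Over the list, the start was read in 48 members, without Syt4 and Rims1. Of these, 40 of 48 had this purine, against 84.2% of all coding genes. In 20 of 48 the purine came with a G after the codon, against 41.2%. These shares were near those of all genes.

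**Figure D2:**
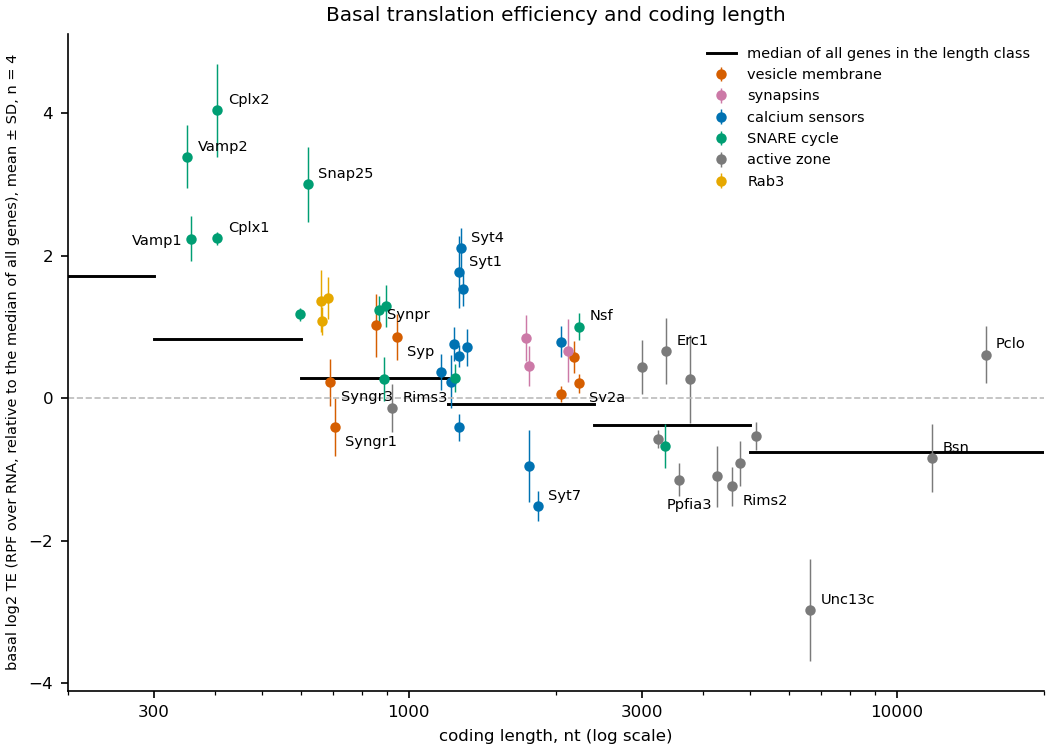
Basal log2 TE of the 50 genes (y axis, mean ± SD over 4 replicates) against coding length in nt (x axis, log scale), coloured by role, with black bars at the median of all genes in each length class. The short SNARE cycle genes Cplx2, Vamp2 and Snap25 lie above the bars at 4.04, 3.39 and 3.0, and Unc13c lies far below at -2.97.

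The comparison of DHPG with basal slices asks which mRNAs change in amount or in ribosome occupancy within the 5 min of treatment. All 50 genes passed the filter on low counts in both assays. In RPF, Syngr3 was past the threshold (adjusted p under 0.05), which is given as a description and is no test of it, and 0 of the other 49 genes passed in edgeR. Over all 13208 genes tested the share past it was 0.22%, and nothing is read from the members' count beside it. The count of members was 0 with Syngr3 included when replicate 1 or replicate 2 was left out, or with no replicate block. It was 1 in DESeq2 with the block, beside 0.212% of all genes. It was 6 after ComBat followed by DESeq2, a route like that of the study's methods but not the same, beside 3.23% of all genes. The RPF fold changes of the list centred on 0, with 25 genes higher and 25 lower, a median log2 fold change of 3.4e-05 (0.0031 over all genes) and a range from -0.17 to 0.15. Where the p was left unadjusted, 5 members were higher and 2 lower at a limit of 0.05 (4 and 2 without Syngr3), beside 6.55% and 4.21% of all genes, or 10.8% in both directions. In RNA 0 of the 50 passed (adjusted p under 0.01, edgeR), beside 0.00773% of all 12935 genes. DESeq2 with the block called 0 of the 50, beside 0% of all genes, and ComBat followed by DESeq2 called 5, beside 1.55% of all genes. With no adjustment and a limit of 0.05, there were 5 RNAs higher and 3 lower, beside 5.2% and 2.81% of all genes (8.02% in both directions). The RNA log2 fold changes had a median of 0.028 (0.0068 over all genes) and ran from -0.23 to 0.30, and 29 of 50 were above 0, beside 52.1% of all genes. Without replicate 4 the RNA median was -0.020.

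Syngr3 is a tetraspan protein of the vesicle membrane encoded on chromosome 17 (24685092 to 24689955, mm10, minus strand). Its RPF level was 190.2, 194, 183, 196 and 184 CPM in the basal libraries of replicates 1 to 5, and 214, 221, 199, 215 and 207 CPM in the DHPG libraries. Each DHPG library was above each basal library, and DHPG was higher in 5 of 5 pairs. The RPF log2 fold change was 0.15 (SE 0.031), or 1.11-fold. Syngr3 was the sole member whose groups did not overlap upward in RPF, beside 0.159% of all genes. These are the RPF values counted as used in singling it out, so nothing is read from that. No member's groups were apart downward in RPF (0.235% of all genes), or upward or downward in RNA (0.209% and 0.309%). Its RNA was 159, 217, 226 and 149 CPM in basal and 166, 179, 209, 155 and 191 CPM in DHPG libraries. The RNA groups overlapped, with a log2 fold change of -0.066 (SE 0.073, adjusted p = 0.855 in edgeR). The TE change, which shares the RPF values, was 0.22 (SE 0.071).

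The other vesicle membrane proteins are set beside it. Syngr1 RPF was 175, 159.9, 168, 175 and 179 CPM in basal and 187, 194, 172, 184 and 178 CPM in DHPG libraries, which overlapped. Its RPF log2 fold change was 0.098 (SE 0.035), with an adjusted p = 0.281 from edgeR, and DHPG was higher in 4 of 5 pairs. Without replicate 2 it was 0.046. Syp RPF was 2184, 2063, 2105, 1961 and 2065 CPM in basal and 2334, 2380.0, 2143, 2069 and 2143 CPM in DHPG libraries. Syp was higher in 5 of 5 pairs although the groups overlapped, with an RPF log2 fold change of 0.092 (SE 0.030, adjusted p = 0.207 in edgeR).

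Synpr and the SV2 proteins stayed nearer to 0. The RPF log2 fold change was 0.026 (SE 0.031) for Synpr, 0.040 (SE 0.030) for Sv2a, 0.0042 (SE 0.029) for Sv2b and -0.0052 (SE 0.049) for Sv2c, with adjusted p from 0.677 to 0.981 in edgeR. Synpr RPF was 230.3, 271, 273, 225 and 238 CPM in basal and 246, 279.8, 274, 226 and 237 CPM in DHPG libraries. The same replicates were high in both groups. Sv2a RPF was 655, 654, 643, 594 and 644 CPM in basal and 676, 718, 639, 618 and 631 CPM in DHPG libraries, and Sv2c RPF was 41.6, 45.2, 37.9, 35.8 and 36.2 CPM in basal and 42, 42.9, 41.2, 34 and 35 CPM in DHPG libraries. Sv2b RPF was 650.4, 699, 655, 579.6 and 590.2 CPM in basal and 632, 732, 653, 597 and 571 CPM in DHPG libraries. Sv2b encodes an SV2 transporter-like protein of the vesicle membrane, and its libraries differed more between replicate numbers than between treatments. In RNA, none of the 7 passed, with log2 fold changes from -0.11 (Sv2b) to 0.10 (Sv2c). Synpr and Sv2b RNA were lower in 4 of 4 pairs and Sv2c RNA higher in 4 of 4.

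**Figure D3:**
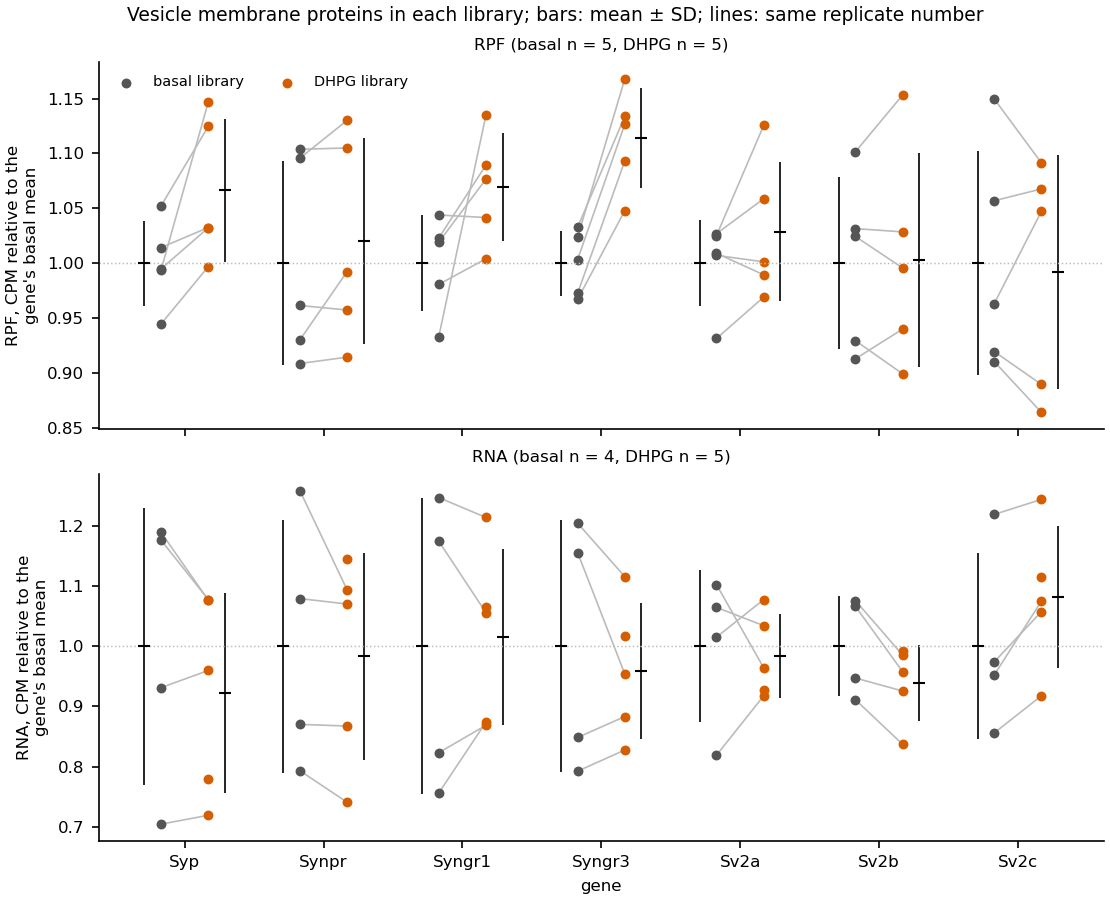
CPM of the 7 vesicle membrane proteins in each library, divided by the gene's basal mean (y axis), for RPF above and RNA below; grey lines join the same replicate number, and black bars are mean ± SD. In RPF the 5 DHPG libraries of Syngr3 lie above its 5 basal libraries, while the groups of the other 6 genes overlap.

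Summed markers of cell types and regions differed in the same contrast, in both directions. The summed thalamus markers differed in RPF by 0.31, 0.55, 0.51, 0.43 and -0.21 (log2 of DHPG over basal) in pairs 1 to 5, and the summed oligodendrocyte markers by 0.13, 0.22, 0.022, 0.21 and -0.14. Both sums were higher in 4 of 5 pairs. The summed microglia markers differed by 0.22, 0.062, 0.011, 0.31 and 0.060, the astrocyte markers by 0.066, 0.0049, 0.064, 0.041 and 0.11, and the markers of inhibitory interneurons by 0.014, 0.016, 0.0071, 0.074 and 0.11. These 3 sums were higher in 5 of 5 pairs, as Syngr3 was, with differences of 0.17, 0.19, 0.12, 0.13 and 0.17. Syngr1 differed by 0.091, 0.28, 0.034, 0.079 and -0.0032, and Syp by 0.096, 0.21, 0.026, 0.078 and 0.053. Sums of the remaining lists had both signs across pairs. The endothelial markers differed by 0.39, -0.73, -0.18, 0.32 and 0.095, and the CA3 markers by -0.051, -0.026, -0.049, -0.0038 and 0.010. The CA1 markers differed by 0.0074, -0.025, 0.067, 0.064 and 0.0043. Principal cell markers differed by 0.044, 0.084, 0.076, -0.036 and 0.045, and dentate granule cell markers by 0.032, 0.15, -0.054, -0.062 and 0.022.

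By gene, a positive RPF log2 fold change was found in 4 of 5 oligodendrocyte markers (1 past the threshold), 4 of 4 microglia markers, 5 of 5 astrocyte markers and 3 of 6 interneuron markers (1 past the threshold). It was found in 0 of 3 endothelial, 1 of 3 CA3, 2 of 3 CA1, 3 of 4 principal cell and 3 of 4 dentate markers. None of these was past the threshold. Over all genes 51.4% were positive and 0.182% were past the threshold as higher. The marker lists were chosen with earlier results of these data known, so the counts are a description. The summed RPF levels in basal and DHPG libraries overlapped for each cell type, at 3311 to 7264 and 3822 to 8446 CPM for oligodendrocytes, 259 to 368 and 304 to 412 CPM for microglia, 1851 to 2203 and 1910.0 to 2302 CPM for astrocytes, and 1142 to 1247 and 1224 to 1313 CPM for interneurons. No marker of these lists was at 0 in any library. The part of these cells in the values of Syngr3, Syngr1 and Syp was not tested.

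**Figure D4:**
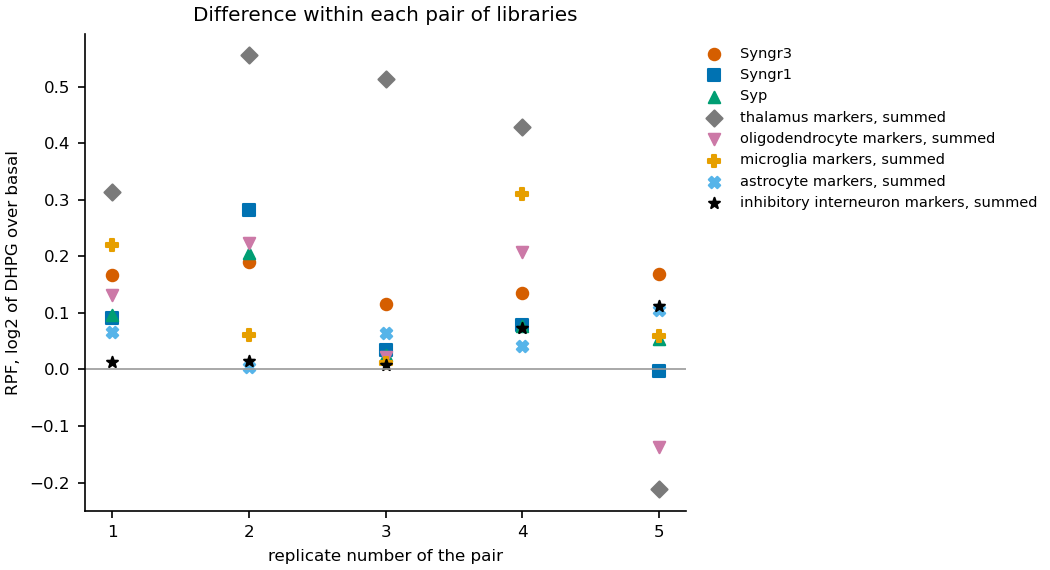
RPF difference within each pair of libraries with the same replicate number (x axis), as log2 of DHPG over basal (y axis), for Syngr3, Syngr1, Syp and the summed markers of 5 cell types or regions. Syngr3 and the sums for microglia, astrocytes and interneurons lie above 0 in all 5 pairs, and the sums for thalamus and oligodendrocytes in 4 of 5.

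The synapsins, which tether vesicles, lay at or below 0 in RPF. Syn2 RPF was 778, 686, 755, 843 and 758 CPM in basal and 722, 648, 719, 816 and 752 CPM in DHPG libraries. Syn2 was lower in 5 of 5 pairs by a small step, with an RPF log2 fold change of -0.063 (SE 0.029, adjusted p = 0.415 in edgeR). Syn1 was at -0.00076 (SE 0.030) and Syn3 at -0.055 (SE 0.061).

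Of the 12 calcium sensors, 10 had a positive RPF log2 fold change, and none passed the test, beside 51.4% positive over all genes. Syt1 was at 0.082 (SE 0.030, edgeR adjusted p = 0.277), with 4 of 5 pairs higher, and Syt5, a vesicle synaptotagmin, at 0.080 (SE 0.031, edgeR adjusted p = 0.335), with 5 of 5 pairs higher. Syt6 had the most negative RPF log2 fold change of the list, -0.17 (SE 0.094, adjusted p = 0.532). Its RPF was 9.62, 9.43, 10.1, 9.57 and 9.22 CPM in basal and 9.25, 10.3, 8.33, 7.06 and 7.79 CPM in DHPG libraries. The DHPG libraries of Syt6 spread more widely than the basal ones and overlapped them. Doc2a, a soluble calcium sensor, was at -0.075 (SE 0.061, adjusted p = 0.708), and Rph3a (rabphilin, a Rab3 effector) at 0.050 (SE 0.030).

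In the SNARE cycle, 9 of 12 genes had a negative RPF log2 fold change, and none passed. Vamp1 RPF was 53.0, 46.3, 47.5, 53.9 and 48.4 CPM in basal and 47.2, 47.0, 43.6, 49.0 and 42.2 CPM in DHPG libraries, lower in 4 of 5 pairs with overlap. Its RPF log2 fold change was -0.11 (SE 0.046, adjusted p = 0.350 in edgeR). The most abundant members hardly differed. Snap25 was at -0.0056 (SE 0.028), Vamp2 at 0.032 (SE 0.029) and Nsf, the ATPase that takes SNARE complexes apart, at -0.036 (SE 0.029). The active zone proteins ran in RPF from -0.064 (Erc1) to 0.12 (Unc13c, SE 0.14), and the Rab3 GTPases from -0.035 (Rab3b) to 0.028 (Rab3c), with none past the threshold.

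RNA changes were larger in size, with larger errors. Rims3, which encodes a short RIM protein, had the largest RNA log2 fold change of the list, 0.30 (SE 0.11, adjusted p = 0.545 in edgeR). Its RNA was 19.7, 22.4, 26.5 and 20.2 CPM in basal and 24.4, 28.6, 26.7, 29.5 and 18.5 CPM in DHPG libraries, higher in 4 of 4 pairs, with the unpaired DHPG replicate 5 below all basal libraries. Rab3b was at 0.22 (SE 0.094) and Cplx2 at 0.19 (SE 0.097) in RNA. The most negative RNA values were Unc13c at -0.23 (SE 0.10), Napb (beta-SNAP, an NSF adaptor) at -0.18 (SE 0.072) and Snap47, a SNAP-25 homolog, at -0.16 (SE 0.064). Snap47 RNA was 532, 598, 641 and 516 CPM in basal and 478, 535, 567, 469.9 and 535 CPM in DHPG libraries, lower in 4 of 4 pairs with overlap. In RNA, 6 members were higher in every pair and 4 lower, beside 8.67% and 6.97% of all genes, and in RPF 4 were higher and 3 lower, beside 5.15% and 4.73%.

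**Figure D5:**
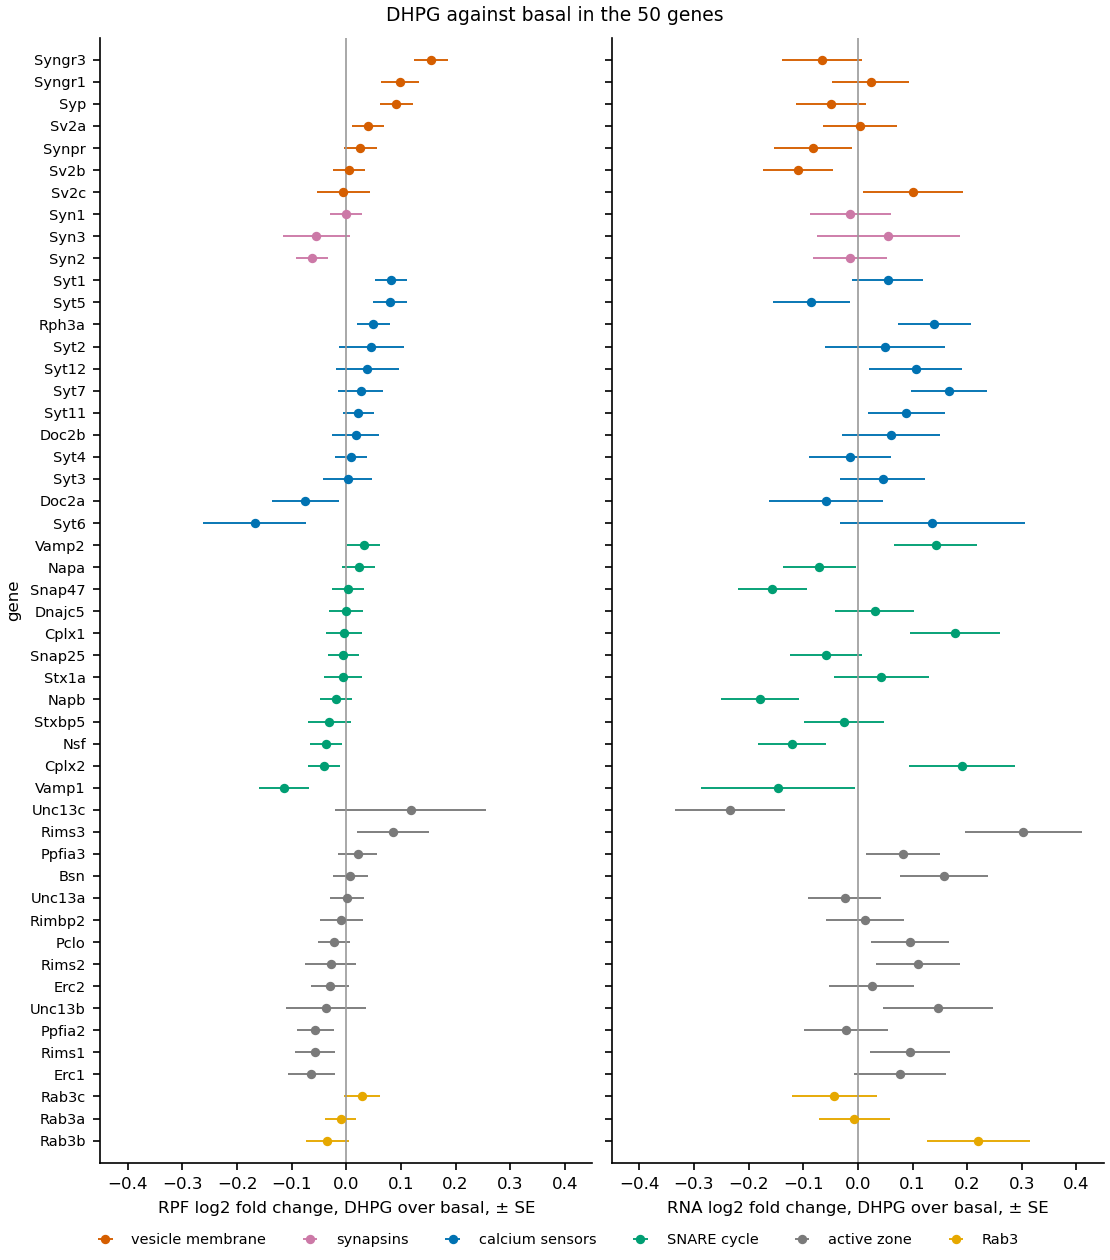
Log2 fold change of DHPG over basal (x axes) in RPF on the left and RNA on the right for the 50 genes (y axis), with bars of 1 SE from the edgeR fits and colours for roles. RPF values lie between -0.17 and 0.15 with Syngr3 at the top, and RNA values between -0.23 and 0.30 with wider bars.

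A change of TE, tested as the interaction of assay and treatment, passed in 0 of the 50 genes (edgeR, adjusted p under 0.05) and in 0% of all 12691 genes. With no adjustment and a limit of 0.05, the TE of 6 members was higher and that of 3 lower (5 and 3 without Syngr3), beside 3.14% and 3.63% of all genes (6.77% in both directions). The TE change was above 0 in 19 of 50 members, beside 49.5% of all genes, with a median of -0.033 (-0.0014 over all genes), which was 0.0051 without replicate 4. The most positive TE changes were Unc13c at 0.35 (SE 0.16), Syngr3 at 0.22 (SE 0.071) and Syt5 at 0.17 (SE 0.068), and the most negative Syt6 at -0.31 (SE 0.19), Rab3b at -0.25 (SE 0.095) and Cplx2 at -0.24 (SE 0.089). For Rab3b and Cplx2 the RPF log2 fold changes were -0.035 and -0.041, smaller in size than those in RNA. Of the 13 active zone genes, 11 had a TE change below 0 and 10 an RNA log2 fold change above 0, beside 52.1% of all genes in RNA. None of them passed in either, and the TE change shares the RNA values. Of the 7 vesicle membrane proteins, 6 had a TE change above 0.

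Replicates differed among themselves as well. The range over basal RPF libraries had a median of 0.23 on the log2 scale in the 50 genes, against 0.36 over all genes tested, and in RNA 0.62 against 0.57. The widest RPF ranges were 0.64 for Syt2, 0.48 for Syt4 and 0.44 for Rims3. Syt4 RPF was 343, 418, 367, 311 and 300.4 CPM in basal and 343, 422, 373, 319 and 293 CPM in DHPG libraries, so that replicate 2 was high and replicate 5 low in both groups. Syt2 RPF, 27.3, 30.2, 27.2, 19.4 and 25 CPM in basal libraries, was highest in the same replicate. In RNA, Snap25 was 1012, 615, 473 and 1011 CPM per kb in basal and 910.1, 597, 479.7, 975 and 683 CPM per kb in DHPG libraries, so that replicates 1 and 4 were high in both groups. Its RPF lay between 4872 and 5353 CPM per kb in the basal libraries, with no such split.

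A list of 48 other presynaptic genes, which includes further SNARE regulators and synaptotagmins, vesicular transporters and proton pump subunits, was read from the same fits. In RPF 1 of 48 passed, beside 0.22% of all genes. It was Slc17a6, the vesicular glutamate transporter of thalamic and other subcortical neurons, at 0.23 (SE 0.046, adjusted p = 0.0144 in edgeR). That gene is also on the thalamus list. The median RPF log2 fold change of the 48 was 0.0099, with 30 of 48 positive, beside 51.4% of all genes. In RNA and TE 0 of 48 passed in edgeR, beside 0.00773% and 0% of all genes. With no adjustment 1 was higher and 0 lower at a limit of 0.05 in each. The shares of all genes were 5.2% and 2.81% in RNA and 3.14% and 3.63% in TE. In RNA, DESeq2 with the block called 0 of all genes tested. Syngr2 and Sypl, further tetraspan proteins, were at 0.028 and 0.14 in RPF, and neither passed. The median basal TE of these 48 genes was 0.32, with 13 in the top decile of all genes and 4 in the bottom decile.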

How the data were processed

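Hippocampal slices of wild-type mice were profiled by RNA-seq and ribosome profiling. The authors trimmed reads with cutadapt, removed rRNA and tRNA reads with Bowtie2, aligned to mm10 with TopHat2, kept uniquely mapped reads without duplicates of the same molecular identifier, and estimated gene counts with RSEM. For RPFs the ends of each coding sequence were left out of the counting. The deposited values are expected counts rounded to whole numbers. There were 12 columns that belong to no sample and were not used.

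The list of 50 genes, the marker lists and the tests were chosen with earlier results of these data known. RNA and RPF were each fitted with edgeR 4.0.16 (R 4.3.3) by its quasi-likelihood F test, with TMM factors, filterByExpr, the replicate number as a block and p-values adjusted over the whole table by Benjamini-Hochberg. The thresholds were 0.01 in RNA and 0.05 in RPF and TE. TE changes were the assay by treatment interaction in 1 model. SE is the log2 fold change over the root of F. The scripts were tested on simulated data. Same-numbered libraries deviated together in every pair (correlations 0.31 to 0.74 in RNA and 0.26 to 0.52 in RPF), so the numbers were taken to pair the samples. In RNA replicate 2 the correlation with another number was higher, at 0.47 against 0.31. Each replicate is a pool of mice, and the block takes out differences in level between replicate numbers. The p-values therefore rest on the variation left after the block. edgeR estimates that variation with information shared over all genes, so it is not the spread of a gene's own pairs alone.

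The study's methods describe RNA-seq reads as aligned to whole transcripts, while for its own hippocampal TE both assays were mapped to coding sequence. The deposited RNA counts followed coding length, and which of these descriptions holds for them was not resolved. For coding sequences of 1200 to 1800 nt, log2 of RNA over RPF was 0.33 with a 3′UTR of 100 to 400 nt and 0.098 with one of 1600 to 10000 nt. TE was therefore the plain ratio of CPM (prior count 2) and levels were scaled by coding length less 60 nt, where a ratio per transcript length had been planned. If RNA was counted on whole transcripts, every TE and RNA level per kb given here would change, with the TE of Syp at 1.35 and of Syngr3 at 0.81 per transcript length. Lengths and sequences are from GENCODE M21 (mm10), which gave 95.4% of genes a coding model. The genes given with values are the vesicle membrane proteins, the highest and lowest RNA level in each role, the 3 extremes of TE and of each change, members past a threshold and the 3 widest spreads, 28 in all, with paralogs and role neighbours beside them, some chosen after their values were seen. Alternatives were other size factors, filters, DESeq2 1.42.0, ComBat (sva 3.50.0), no block, other lengths and leaving out replicates.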

Additional observations from a re-analysis of the deposited data

Results flagged for a closer look

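Among 112 groups of 4 or 5 libraries of the named genes, 5 had a library far from the rest by Dixon's test, and chance alone would flag about 5.6. In basal RPF, replicate 4 stood apart for Sv2a at 594.5 CPM (the others 642.7 to 655.4), for Bsn at 451.1 CPM (429.1 to 431.4) and for Syt5 at 186.6 CPM (218.7 to 229.3). In DHPG RNA, replicate 1 of Cplx2 was at 56.7 CPM (18.3 to 28.9) and replicate 3 of Syt4 at 72.2 CPM (95.0 to 102). Cplx2 was also highest in replicate 1 of basal RNA, at 46.7 CPM, and Syt4 lowest in replicate 3, at 77.8 CPM.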

How the results depend on the processing

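The number of members past the RPF threshold was 1 with DESeq2's size factors, both other filters and DESeq2 with the replicate block, 0 with no replicate block, and 0 to 1 when a replicate was left out (0 without replicate 1 and without replicate 2). The RPF log2 fold change of Syngr3 was 0.14 to 0.17 in those fits. After ComBat and DESeq2, which leaves out the unpaired DHPG RNA library, 6 members passed in RPF and 5 in RNA, beside 427 and 201 of all genes tested. Here ComBat was run on log2 CPM with the treatment in its model. The study's methods apply ComBat to RSEM counts before DESeq2 and include further replicates, so these counts are not the study's own. The cause of the higher counts was not tested. The block changed no call of a member in RNA or TE.

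The median basal TE of 0.59 was 0.70 with lengths averaged over transcripts, 0.77 with RNA per kb of transcript, 0.47 in DHPG libraries and 0.51 to 0.64 when a replicate was left out. Values near 0 changed sign. Leaving out a replicate moved the members' median between -0.0092 and 0.0068 in RPF, -0.020 and 0.037 in RNA and -0.061 and 0.0051 in TE, and the RPF value of Syngr1 between 0.046 and 0.12. In RPF, leaving out a replicate moved Sv2b between -0.013 and 0.017 and Sv2c between -0.053 and 0.018. In RNA it moved Syngr1 between -0.040 and 0.081, Syngr3 between -0.11 and 0.0021 and Sv2a between -0.052 and 0.070, and Sv2a was at -0.0028 with no filter, -0.0023 with at least 10 counts in every library and -0.023 with no replicate block. In TE it moved Syngr1 between -0.034 and 0.14 and Sv2a between -0.017 and 0.088. In RPF, Unc13c and Syt6 rested on the fewest counts, 19 and 52 in the shallowest case.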
